A study of Homo sapiens with 208 samples.

Results

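A4GALT, the gene of the enzyme that makes the glycolipid Gb3, was followed by microarray in the human lung adenocarcinoma line PC9 and its gefitinib-resistant derivative PC9GRM2. The gene was chosen by 3 measured courses: gefitinib raised its signal in PC9 to about the level it already had in PC9GRM2 cells without treatment. It was 1 of 16961 genes with a probe and 1 of 13263 genes tested, and a single probe (A_23_P57570, annotated to transcript NM_017436) measured it. The 8 courses were PC9 and PC9GRM2, each untreated, with EGF at 100 ng/ml, with the EGFR kinase inhibitor gefitinib at 0.5 µM, or with EGF and gefitinib at those doses. All cells, the untreated ones included, had first been starved for 48 h, and each course had 26 time points from 0 to 24 h with 1 array per time point. In the study's scheme gefitinib was given before time 0, so their 0 h arrays were not drug-free. PC9 cells carry an activating EGFR deletion. PC9GRM2 is 1 clone that survived long exposure of PC9 to gefitinib and was screened to lack MET amplification and the common secondary EGFR mutation.

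A4GALT is the Golgi glycosyltransferase that adds an alpha-linked galactose to lactosylceramide, which gives globotriaosylceramide (Gb3, also the Pk blood group antigen and CD77). Gb3 is the first member of the globo-series, the cell surface receptor of Shiga toxin and the lipid that accumulates in Fabry disease, in which the lysosomal enzyme GLA is missing. Globoside itself (Gb4) is made from Gb3 by another enzyme, B3GALNT1. Lactosylceramide is a branch point, since other enzymes lead it to gangliosides or to the lacto-series.

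The stretch upstream of the gene is shown as context for the transcript that the results below concern. RefSeq (GRCh38.p14) gives A4GALT 2 start sites on the minus strand of chromosome 22. Which of them the measured transcript used was not tested. The 250 bases before the start nearer to the coding part are chr22:42720871-42721120, printed 5′ to 3′ with every GC box (GGGCGG on either strand) in capitals.
A4GALT upstream window: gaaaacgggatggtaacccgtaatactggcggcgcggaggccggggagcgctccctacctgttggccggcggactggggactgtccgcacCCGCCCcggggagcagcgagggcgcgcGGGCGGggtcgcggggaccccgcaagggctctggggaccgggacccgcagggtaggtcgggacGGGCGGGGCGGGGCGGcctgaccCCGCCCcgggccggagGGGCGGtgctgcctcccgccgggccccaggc
This window was 79.2% G or C and held 7 GC boxes. Of 35116 windows of this length, 42.6% held at least 1 GC box and 1.12% held at least 7. The window before the other start was 42.0% G or C with 1 GC box. Neither window held TGANTCA (the AP-1 letters, in 6.57% of windows), GCGTGGGCG (the EGR letters, which overlap with a GC box, in 0.72%) or CACGTG (the E-box letters, in 6.34%), searched on both strands. These matches describe letters and not bound sites.

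The arrays of PC9 and PC9GRM2 had 24755 to 36332 and 26982 to 33937 features well above background. Saturated features numbered 221 to 1702 on the PC9 arrays and 0 on the PC9GRM2 arrays. The part of this in the line differences, those of bright genes included, was not tested. The lines shared 0 scan days and 0 slides, so line and scan period cannot be told apart. Arrays hybridised on the same slide came from the same line and hour, with a fixed position for every treatment, so treatment and array position cannot be told apart either. Of 10 ERK-induced genes listed as a check of the drug, 10 fell in PC9 and 9 in PC9GRM2 (gefitinib effect with EGF, limma). Of all genes, 39.9% fell in PC9 and 37.8% in PC9GRM2 in these contrasts. DUSP6, an ERK phosphatase, fell by 6.96 ± 0.31 in PC9 and by 2.51 ± 0.32 in PC9GRM2 on the log2 scale (SE, adjusted p = 5.29e-17 and 4.94e-08). EGR1, an immediate early gene, fell by 4.26 ± 0.13 in PC9 (SE, adjusted p = 9.61e-21) and differed by 0.23 ± 0.37 in PC9GRM2 (SE, adjusted p = 0.588). All 7 epithelial markers were well above background on every array, whereas the lung markers NKX2-1 and SFTPB passed on 13 and 89 arrays only and NAPSA on 207. Of the leukocyte markers, PTPRC passed on 1 array and CD3E on 84, while CD79A and CD14 passed on every array. Of the endothelial markers, KDR passed on 4 arrays and CDH5 on 34, while PECAM1 passed on 207 and VWF on every array. The erythroid markers HBB and ALAS2 passed on 40 and 148 arrays, and none of the 5 fibroblast markers with a probe passed on more than 31. The part of these markers in the results was not tested. In RNA from whole cultures, fewer expressing cells and less RNA per cell cannot be told apart.

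The course means of A4GALT fell into 2 ranges. All values below are log2 of the quantile-normalized signal, given as mean ± SD over the 26 time points of a course, which stand in for replicates because each time point had 1 array. From high to low, PC9GRM2 with EGF and gefitinib had 8.08 ± 0.40, PC9GRM2 with gefitinib 8.01 ± 0.36 and PC9GRM2 with EGF 7.98 ± 0.56. Next came PC9 with gefitinib at 7.87 ± 1.35, PC9 with EGF and gefitinib at 7.82 ± 1.21 and PC9GRM2 untreated at 7.64 ± 0.65. Neighbours among these 6 courses differed by less than the SD of either course. Below them were PC9 with EGF at 5.26 ± 0.92 and PC9 untreated at 5.15 ± 1.05, which again differed by less than their SDs. These SDs include the change over time within a course, so courses with near means could still differ at matched time points. The lowest values of PC9 with gefitinib and of PC9 with EGF and gefitinib, 5.29 and 5.66, lay among the values of the lower courses. The probe was well above background on all 26 arrays of the 6 upper courses, on 20 arrays of PC9 untreated and on 18 of PC9 with EGF. The PC9 arrays that missed this flag lay at 5 h, from 15 to 18 h and at 20 h without treatment, and at 13 h and from 15 to 21 h with EGF. Saturated or outlier spots of this probe were not found.

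The courses differed in shape as well as in level. In PC9 with EGF and gefitinib, A4GALT started at 5.66 at 0 h, the lowest value of the course, had a median of 7.92 and ended at 9.84 at 24 h, the highest. In PC9 with EGF alone it stood at 6.24 at 0 h, reached its highest value of 6.87 at 4 h, had a median of 5.13 and a lowest value of 3.74 at 15 h. The 2 courses thus started within 0.58 of each other and moved apart in opposite directions. A spline of time with 4 degrees of freedom (limma F-test) gave a fitted range of 4.29 with EGF and gefitinib, lowest at 0 h and highest at 24 h (adjusted p = 3.06e-13), and of 2.25 with EGF, highest at 0 h and lowest at 15 h (adjusted p = 2.17e-08). Change over time was called for 83.1% and 78.8% of all genes in these courses, and the median fitted range over all genes was 1.16 and 1.06. The courses that chose the gene are described only: PC9 with gefitinib ran from a lowest 5.29 at 1 h over a median of 8.16 to 10.06 at 16 h, and PC9 untreated from a highest 6.62 at 2 h over a median of 5.07 to 2.02 at 16 h.

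**Figure D1:**
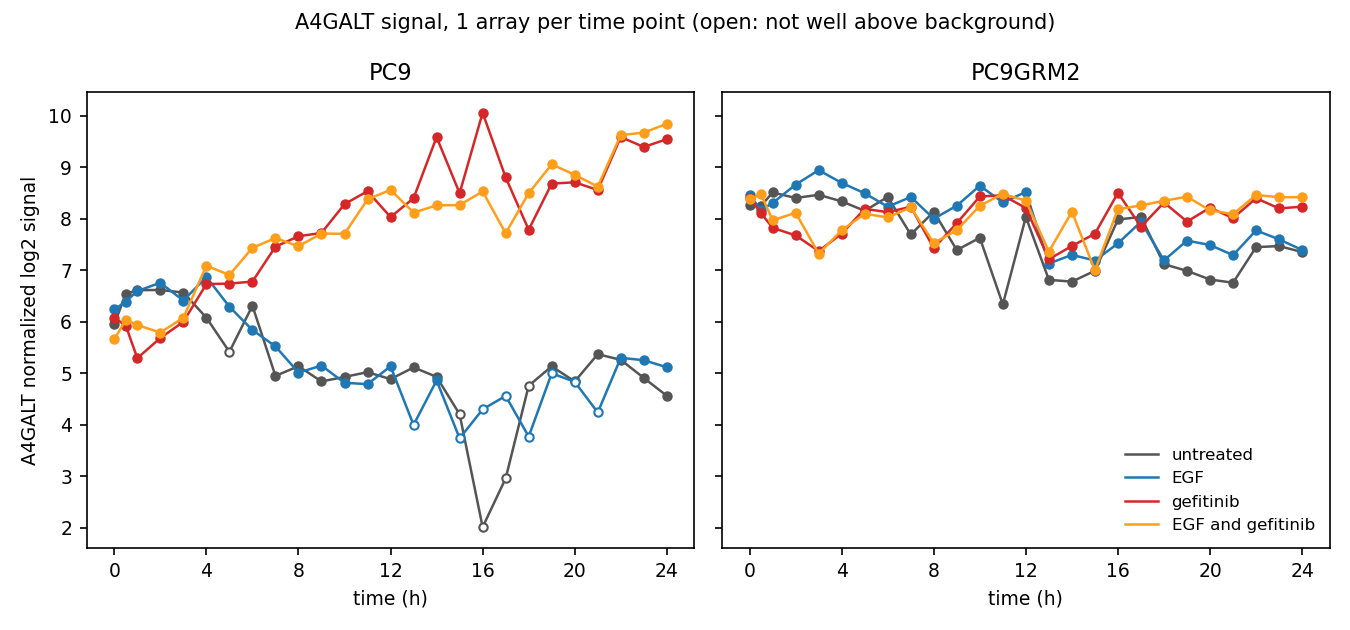
Normalized log2 signal of the A4GALT probe against time in hours, in PC9 (left) and PC9GRM2 (right), with 1 array per point and a line for each treatment; open points were not well above background. In PC9 the courses with gefitinib climb to 9.84 and 9.54 at 24 h while those without fall to 5.12 and 4.56, whereas all PC9GRM2 courses lie between 6.34 and 8.94.

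In PC9GRM2 the signal moved in a narrower range. With EGF, A4GALT had a highest value of 8.94 at 3 h, a median of 8.09 and a lowest of 7.13 at 13 h, with a fitted range of 1.17 (adjusted p = 5.03e-05, with 74.9% of genes called). With EGF and gefitinib it lay between 7.00 at 15 h and 8.48 at 11 h with a median of 8.17, and a change over time was not called (fitted range 0.66, adjusted p = 0.323, with 67.7% of genes called). With gefitinib it lay between 7.21 at 13 h and 8.50 at 16 h with a median of 8.12, and no change was called there either (fitted range 0.44, adjusted p = 0.696, with 63.7% of genes called). PC9GRM2 untreated, which took part in the choice, lay between 6.34 at 11 h and 8.51 at 1 h with a median of 7.66. The 4 PC9GRM2 arrays of 13 h, which shared a slide, lay between 6.81 and 7.36, below the 4 arrays of 12 h, which lay between 8.03 and 8.52. The arrays of 14 and 15 h, on other slides but scanned on the same day as those of 13 h, lay between 6.78 and 8.14. Those of 12 h were scanned on another day. The part of slide or scan day in this was not tested.

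Gefitinib raised A4GALT in EGF-treated PC9 cells, and the rise came late. These 2 courses took no part in the choice of the gene but were run on the same slides as those that did. The mean EGF effect on A4GALT was 0.11 in PC9 and -0.04 in PC9 under gefitinib. The 2 courses are thus not independent of the choice. At matched time points the difference between EGF with gefitinib and EGF alone was lowest, -0.97, at 2 h and highest, 4.72, at 24 h, with a median of 3.28. It was below 0 at all 5 time points before 4 h (mean -0.58) and above 0 at all 21 from 4 h on (mean 3.31). By window, the mean difference was 0.18 ± 1.06 from 0 to 7 h (SD, n = 9), 3.37 ± 0.72 from 8 to 15 h (SD, n = 8) and 4.22 ± 0.47 from 16 to 24 h (SD, n = 9). From 7 h on the 2 courses did not overlap, since the EGF course reached at most 5.52 and the course with gefitinib at least 7.47.

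The mean gefitinib effect in EGF-treated PC9 was 2.56 ± 0.36 (SE, n = 26), a 5.90-fold rise with a 95% interval of 1.81 to 3.31 on the log2 scale (limma, two-sided, adjusted p = 3.41e-07). In this contrast 39.0% of all genes were higher and 39.9% lower, so a call alone did not set A4GALT apart, but only 1.39% of genes had a larger difference. The effect itself changed over time, with a fitted range of 5.53 (adjusted p = 5.53e-15, a test chosen after seeing the data, with 73.9% of genes called). Neighbouring time points were correlated (lag-1 correlation 0.95), so the 26 differences are not independent and the p-values are too small. With 9 time points 3 h apart the effect was 2.78 (adjusted p = 0.00283). The size depended on the setting: it was 1.01 over the first 13 time points (adjusted p = 0.0343), 4.11 over the last 13, and 0.90 after a background correction that compresses dim signals (normexp, adjusted p = 1.72e-06). Scan days followed the time points in PC9, and the day means ran from -0.64 to 4.49, so scan day and time cannot be told apart. With scan day as a random block the effect was 2.74 (adjusted p = 4.66e-07). Without EGF, in the courses that chose the gene, the difference was 2.71 and above 0 at 22 of 26 time points. It reached 8.04 at 16 h, where the untreated array was not well above background, and was 2.50 without that time point.

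**Figure D2:**
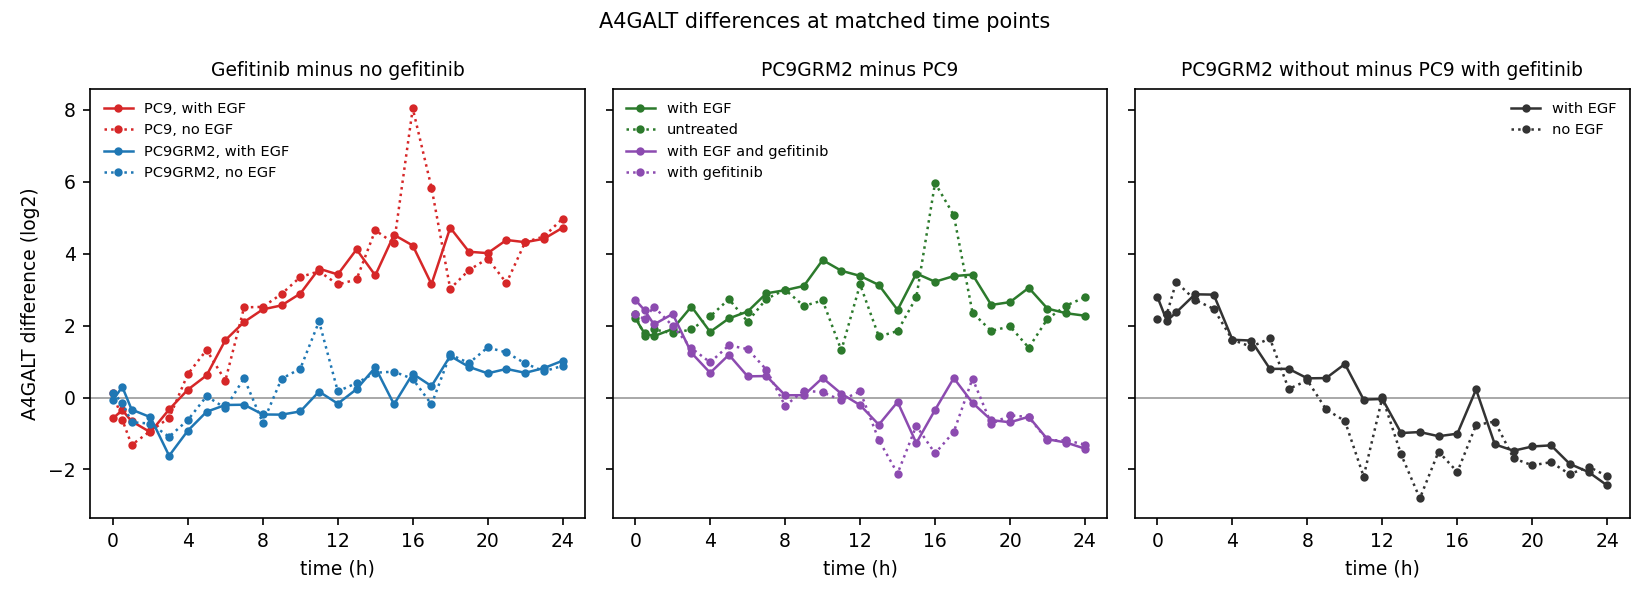
Differences in A4GALT log2 signal at matched time points, against time in hours; solid lines are the courses with EGF and dotted lines those without. On the left the gefitinib effect climbs above 4 in PC9 and stays between -1.62 and 2.12 in PC9GRM2, in the middle PC9GRM2 without gefitinib is above PC9 at every time point, and on the right PC9GRM2 without gefitinib starts above gefitinib-treated PC9 and ends below it.

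In PC9GRM2 the mean gefitinib effect with EGF was 0.10 ± 0.13 (SE, n = 26, 95% interval -0.16 to 0.36, limma adjusted p = 0.498), above 0 at 13 of 26 time points. Gefitinib called 36.7% of all genes higher and 37.8% lower in these cells. The mean hid a change of sign. A4GALT differed by -0.44 ± 0.55 from 0 to 7 h (SD, n = 9), by -0.06 ± 0.45 from 8 to 15 h (SD, n = 8) and by 0.78 ± 0.24 from 16 to 24 h (SD, n = 9), with a lowest value of -1.62 at 3 h and a highest of 1.16 at 18 h. From 16 h on the difference was above 0 at every time point. This change over time had a fitted range of 1.61 (adjusted p = 1.61e-05, a test chosen after seeing the data, with 64.8% of genes called). Scan days grouped neighbouring time points in PC9GRM2 too, with day means from -0.51 to 0.84, so scan day and time cannot be told apart. Over the first 13 time points the effect was -0.40 (adjusted p = 0.0153) and over the last 13 it was 0.59 (adjusted p = 1.49e-04). Without EGF the difference was 0.37, above 0 at 18 of 26 time points, given with no test because the untreated course took part in the choice.

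The gefitinib effects of the lines differed. The effect in PC9GRM2 minus that in PC9, with EGF, was -2.47 ± 0.29 (SE, n = 26, 95% interval -3.05 to -1.88, limma adjusted p = 8.85e-08), below 0 at 22 of 26 time points. It was -0.63 from 0 to 7 h, -3.43 from 8 to 15 h and -3.45 from 16 to 24 h. Of all genes, 25.7% had a difference of effects below 0 and 22.9% above 0 by this test. The value was -1.41 over the first 13 time points (adjusted p = 0.0183) and -0.86 with the normexp correction (adjusted p = 7.79e-08). The lag-1 correlation was 0.88, so these p-values are too small as well.

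A4GALT was higher in PC9GRM2 than in PC9 at every time point without gefitinib. With EGF, which the choice did not use, the difference ran from 1.71 at 1 h to 3.82 at 10 h and was above 0 at 26 of 26 time points. The highest PC9 value of 6.87 lay below the lowest PC9GRM2 value of 7.13, so the courses did not overlap. The mean was 2.72 ± 0.12 (SE, n = 26), a 6.58-fold difference with a 95% interval of 2.48 to 2.95 on the log2 scale (limma adjusted p = 2.53e-18). Neighbouring time points were correlated here too (lag-1 correlation 0.71), so the SE and p-value are too small and the interval is too narrow. In this contrast 32.8% of genes were higher in PC9GRM2 and 37.0% lower, and 0.437% had a larger difference than A4GALT. Already at 0 h the difference was 2.21, and the window means were 2.16, 3.23 and 2.82, with a change over time (fitted range 1.55, adjusted p = 5.86e-05, a test chosen after seeing the data, with 71.7% of genes called). With the normexp correction the mean was 0.89 (adjusted p = 4.57e-16), and over the 18 time points at which every array of the contrast was well above background it was 2.54. Untreated, in courses used for the choice, the difference was 2.49 and above 0 at 26 of 26 time points, or 2.35 without 16 h. The EGF courses shared slides with the untreated ones, and the mean EGF effect on A4GALT was 0.11 in PC9 and 0.34 in PC9GRM2. The difference with EGF is thus no independent repeat of the untreated one.

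With gefitinib in both lines the mean difference was not called and its sign turned over time. With EGF and gefitinib it was 0.25 ± 0.22 (SE, n = 26, 95% interval -0.19 to 0.70, limma adjusted p = 0.306), above 0 at 14 of 26 time points. PC9GRM2 was higher by 1.53 from 0 to 7 h, whereas the difference was -0.20 from 8 to 15 h and -0.63 from 16 to 24 h. Over the first 13 time points the difference was 1.12 (adjusted p = 6.92e-04) and over the last 13 it was -0.62 (adjusted p = 0.0023). Genes called in this contrast made up 31.5% higher and 36.2% lower.

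The choice of the gene rested on a match of mean levels, which was then looked at in the EGF courses. These shared slides with the courses of the choice and are not independent of it. PC9GRM2 with EGF minus PC9 with EGF and gefitinib was 0.16 ± 0.30 (SE, n = 26, 95% interval -0.46 to 0.78, limma adjusted p = 0.655), and 70.4% of all genes differed in this contrast in either direction. A p-value of this size does not show that the levels were equal, and the courses crossed. The difference was highest, 2.87, at 2 h and lowest, -2.45, at 24 h. Its window means were 1.98, -0.14 and -1.40, and it was below 0 at 13 time points, all from 11 h on. The change over time had a fitted range of 5.06 (adjusted p = 4.69e-12, a test chosen after seeing the data, with 83.9% of genes called). Over the first 13 time points the difference was 1.52 (adjusted p = 8.37e-05), over the last 13 it was -1.21 (adjusted p = 2.84e-05). In the courses of the choice, without EGF, the mean was -0.23 and the window means were 1.98, -1.07 and -1.68. Of the 13263 genes, 177 (1.33%) shared the pattern behind the choice: at least 2-fold higher in PC9 with gefitinib and in untreated PC9GRM2 than in untreated PC9, with the first pair within 0.5 on the log2 scale.

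The EGF effects on A4GALT were small beside those of gefitinib in PC9. Under gefitinib in PC9GRM2, the contrast that the choice did not use, the EGF effect was 0.07 ± 0.05 (SE, n = 26, 95% interval -0.04 to 0.18, limma adjusted p = 0.476), and 3.21% of all genes were called. In the remaining contrasts, given with no test, the EGF effect was 0.11 in PC9 and -0.04 in PC9 under gefitinib, above 0 at 12 and 16 of 26 time points, and 0.34 in PC9GRM2, above 0 at 20 of 26. In this last contrast 1.74% of genes had a larger difference.

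Of 58 other genes of the pathway, 51 were tested. With EGF, gefitinib raised 25 and lowered 18 in PC9, which is 49% and 35.3% against 39.0% and 39.9% of all genes, and raised 26 and lowered 17 in PC9GRM2, which is 51% and 33.3% against 36.7% and 37.8% of all genes. The median difference of the 51 was 0.15 in PC9 and 0.16 in PC9GRM2, beside -0.01 and -0.02 over all genes. Between the lines with EGF, 14 of the 51 were higher in PC9GRM2 and 26 lower, which is 27.5% and 51% against 32.8% and 37.0% of all genes, with a median of -0.17 beside -0.04 over all genes.

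Among the enzymes that act on Gb3 or its products, none rose by as much as A4GALT did in PC9. B3GALNT1, which makes globoside, fell by 1.13 ± 0.11 in PC9 (SE, limma adjusted p = 3.15e-10) and by 1.50 ± 0.11 in PC9GRM2 (SE, adjusted p = 7.89e-12), and differed by -0.10 ± 0.17 between the lines with EGF (SE, adjusted p = 0.586). Thus the A4GALT signal rose in PC9 with gefitinib while that of B3GALNT1, the gene of the next enzyme, fell. These are array signals, and enzyme amounts were not measured here. In PC9, ST6GALNAC6, a sialyltransferase, rose by 0.89 (adjusted p = 2.43e-09). ST3GAL2, which sialylates a globo-series product, rose by 0.46 (adjusted p = 0.0078), with a probe above background on at most 13 arrays of a course. FUT1, a fucosyltransferase of the globo H antigen, rose by 0.42 (adjusted p = 6.41e-04), while the values of FUT2 (0.15, adjusted p = 0.334) and GBGT1, the Forssman synthase (0.08, adjusted p = 0.782), were not called. The GBGT1 probe too was above background on at most 13 arrays of a course, so a change in it could be missed. In all, 3 of the 6 other globo-series enzymes tested rose and 1 fell in PC9, and 1 rose and 2 fell in PC9GRM2, against 39.0% of all genes higher and 39.9% lower in PC9 and 36.7% and 37.8% in PC9GRM2. B3GALT5 had no probe that was matched here.

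Of the enzymes that supply lactosylceramide, UGCG, which makes glucosylceramide, fell by 0.41 ± 0.05 in PC9 (SE, limma adjusted p = 1.02e-08) and differed by -0.09 in PC9GRM2 (adjusted p = 0.176). Of the lactosylceramide synthases, B4GALT5 rose by 1.22 ± 0.12 in PC9 (SE, adjusted p = 9.21e-10) and by 1.09 in PC9GRM2 (adjusted p = 6.76e-10). B4GALT6 fell by 2.18 ± 0.20 in PC9 (SE, adjusted p = 1.04e-10) and by 1.36 in PC9GRM2 (adjusted p = 1.91e-07), with a probe above background on 6 of 26 PC9 arrays with EGF and gefitinib. In the whole supply list of 20 genes, 8 rose and 9 fell in PC9, and 9 rose and 9 fell in PC9GRM2, beside the 39.0% higher and 39.9% lower of all genes in PC9 and the 36.7% and 37.8% in PC9GRM2.

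Enzymes of the competing branches moved in both directions, and the gefitinib effects of the lines differed for 7 of the 10 tested (3 higher and 4 lower in PC9GRM2). Over all genes, 22.9% were higher and 25.7% lower in this difference of effects. B3GNT5, which opens the lacto-series, fell by 1.07 ± 0.06 in PC9 (SE, limma adjusted p = 6.31e-15) and by 0.99 in PC9GRM2 (adjusted p = 5.27e-10). B4GALNT1, a synthase of GM2 and GD2 gangliosides, fell in PC9, by 0.38 (adjusted p = 0.00435), and fell more in PC9GRM2, by 1.01 (adjusted p = 3.57e-09). B3GALT4, which extends gangliosides, rose by 2.47 ± 0.19 in PC9 (SE, adjusted p = 5.83e-12) and by 2.22 in PC9GRM2 (adjusted p = 6.88e-11), a size near that of A4GALT in PC9. ST3GAL5, which makes GM3, had -0.16 in PC9 (adjusted p = 0.133) and 0.13 in PC9GRM2 (adjusted p = 0.412). Of the 10 branch genes tested, 4 rose and 5 fell in each line. Of all genes, 39.0% rose and 39.9% fell in PC9, and 36.7% rose and 37.8% fell in PC9GRM2.

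**Figure D3:**
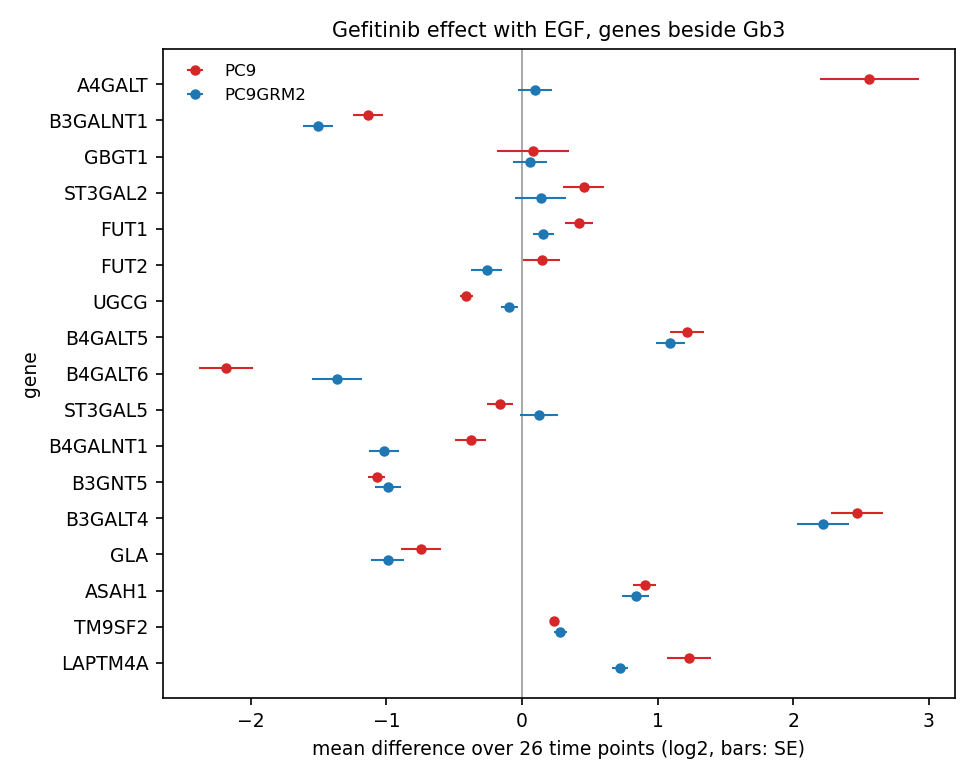
Mean gefitinib effect with EGF (log2, bars are SE) for A4GALT and named genes of glycosphingolipid synthesis, breakdown and Golgi function, in PC9 (red) and PC9GRM2 (blue). A4GALT is at 2.56 in PC9 and 0.10 in PC9GRM2, and B3GALT4, the gene nearest to it in PC9, is at 2.47 and 2.22.

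On the side of breakdown, GLA, the lysosomal galactosidase that removes the galactose added by A4GALT, fell by 0.74 ± 0.15 in PC9 (SE, limma adjusted p = 4.16e-05) and by 0.99 ± 0.12 in PC9GRM2 (SE, adjusted p = 3.26e-08). It was also lower in PC9GRM2 than in PC9 with EGF, by -0.46 (adjusted p = 3.59e-05). The list of breakdown genes had 12 tested members, among them GBA2, whose enzyme is not lysosomal and which fell by 0.78 in PC9 (adjusted p = 1.4e-10). Of the 12, 8 rose and 2 fell in PC9 (39.0% and 39.9% of all genes) and 9 rose and 1 fell in PC9GRM2 (36.7% and 37.8% of all genes). In PC9GRM2 against PC9 with EGF, 2 of the 12 were higher and 9 lower (32.8% and 37.0% of all genes). ASAH1, the acid ceramidase, rose by 0.90 in PC9 (adjusted p = 4.39e-10). Golgi proteins that Gb3 synthesis is known to need were LAPTM4A, which rose by 1.24 ± 0.16 in PC9 and 0.72 ± 0.06 in PC9GRM2 (SE, adjusted p = 8.32e-08 and 5.04e-11), and TM9SF2, which rose by 0.24 and 0.28 (adjusted p = 4.29e-07 and 3.14e-06). TMEM165, the other Golgi factor on the list, fell in PC9, by 0.39 (adjusted p = 1.22e-06), and rose in PC9GRM2, by 0.28 (adjusted p = 0.00227). In PC9GRM2 against PC9 with EGF, TM9SF2 was 0.45 higher (adjusted p = 3.39e-09) and TMEM165 differed by -0.31 (adjusted p = 0.00633). The homologues A4GNT and A3GALT2 were well above background on 0 and at most 1 array of any course and were not tested.

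Among the genes whose signal followed A4GALT most closely over all arrays of the 8 courses were MYO7A, an unconventional myosin (Pearson r = 0.894), and HARS2, a mitochondrial histidyl-tRNA synthetase (0.875). WDR24 (0.874), ANO9 (0.872), ADGRE5 (0.87), PIGQ (0.866) and MMP11 (0.865) were also among the closest of 11590 genes compared, of which all but the top percent stood below 0.796. The arrays share lines, slides and treatments, so these values are a description. MMP11, a matrix metalloproteinase, had a line difference with EGF of 2.48 and a gefitinib effect with EGF of 2.56 in PC9, beside 2.72 and 2.56 for A4GALT. The MMP11 probe was well above background on 9 of 26 untreated PC9 arrays, where its mean was 3.53. In PC9 with EGF, the course used in these differences, its mean was 3.58, so they rest on a similarly dim signal. For the others named here the line difference was smaller, from 0.86 in ADGRE5 to 1.35 in MYO7A. When the mean of each course was taken off first, so that only the course of time remained, HARS2 (0.835), SH3TC1 (0.835), RILP (0.794) and NECTIN1 (0.786) were among those most like it. HARS2 was thus in both groups.

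**Figure D4:**
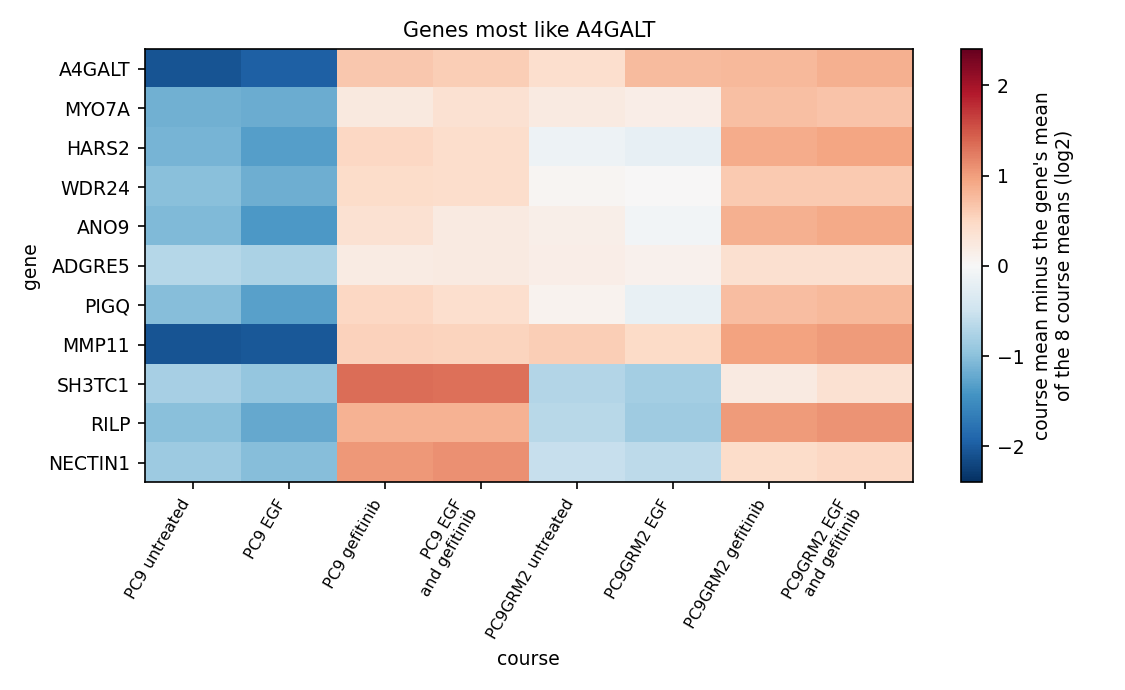
Course means of A4GALT and of genes most like it, each relative to the mean of its own 8 course means (log2, red higher, blue lower). The PC9 courses without gefitinib are the lowest of the 8 in each row but that of SH3TC1, and lie furthest below the row mean in A4GALT and MMP11.

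None of the 8 tested neighbours of A4GALT on chromosome 22 differed by as much as A4GALT in these contrasts. With EGF, 5 of them were lower in PC9GRM2 than in PC9, beside 37.0% of all genes lower and 32.8% higher in this contrast. CYB5R3, the nearest on the side before A4GALT, differed by -1.44 ± 0.26 (SE, limma adjusted p = 1.58e-05) and ARFGAP3, the nearest after it, by -0.40 ± 0.07 (SE, adjusted p = 3.93e-06). BIK, a BH3-only gene, was the neighbour called higher in PC9GRM2, by 0.61 ± 0.13 (SE, adjusted p = 9.51e-05). Under gefitinib with EGF in PC9, CYB5R3 differed by -0.04 (adjusted p = 0.719) and ARFGAP3 by 0.06 (adjusted p = 0.264), and no neighbour rose by more than the 0.54 of SERHL2 (adjusted p = 0.0185).

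**Figure D5:**
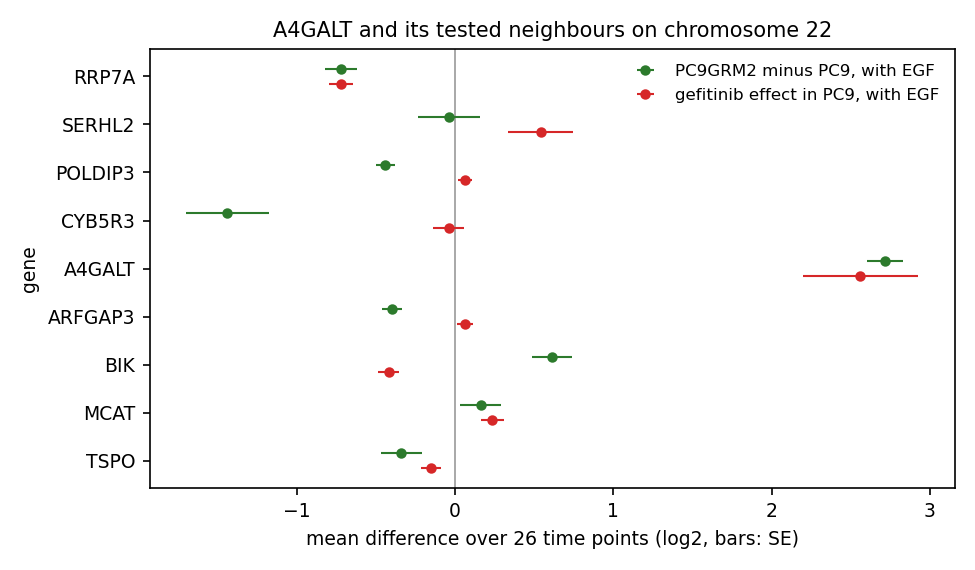
Mean differences (log2, bars are SE) for A4GALT and 4 tested protein-coding genes on each side of it in chromosome order: PC9GRM2 minus PC9 with EGF (green) and the gefitinib effect with EGF in PC9 (red). The values of A4GALT are 2.72 and 2.56, while those of the neighbours lie between -1.44 and 0.61.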

How the data were processed

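Total RNA was labelled with Cy3 and hybridised to 44K Agilent arrays with 1 colour. The deposited files hold Feature Extraction processed intensity, median and background intensities per spot and quality flags (version 10.5.1.1 per the file headers). The authors had background-corrected the processed intensity but not normalized it between arrays. They also deposited a table of intensities, not logged, that they had quantile-normalized. From the processed intensities, all 208 arrays were quantile-normalized together, values were floored at 1 and log2 was taken. Outlier spots were then left out and the remaining spots of a probe were averaged. This left 0.0793% of the values of the tested genes missing. Probes were matched by transcript accession to RefSeq symbols (24794 of 41000 probes), and on 4 arrays, whose files carried other accessions for 1684 features, by feature number. For a gene with several probes the probe of highest variance was used. Genes well above background on at least 13 of 26 arrays of some course were tested (13263). Differences at the 26 matched time points were tested against 0 with limma 3.58.1 in R 4.3.3, two-sided, with Benjamini-Hochberg adjustment over all genes tested and a threshold of 0.05. Time courses were tested with a natural spline and limma's F-test. Sequences came from RefSeq. The study's methods pair the lines by time point, and the 4 treatments of a line at 1 time point share a slide, so time is the pair. The genes named are A4GALT, the enzymes and factors directly beside Gb3, the largest change of each other pathway list, the genes most like A4GALT, 4 neighbours on each side, and DUSP6 and EGR1. ST6GALNAC6 and TMEM165 were named in addition, after their values were seen. Genes that met these rules but are not reported here were left out of the text and figures. A4GALT, the gene lists and the tests were chosen with earlier results of these data known. Contrasts that chose the gene were not tested. The tested contrasts used courses run on the same slides, so they are not independent of the choice. The number of arrays limits the precision. No source used here says whether time points came from separate cultures, so the p-values measure the spread between time points only, which may be technical. In the tested contrasts the lag-1 correlation of the A4GALT differences was 0.71 to 0.95, but -0.125 for the EGF effect under gefitinib in PC9GRM2. Where it was high, the p-values are too small. The scripts were tested on simulated data. Alternatives were another scaling, normexp background correction (on the median signal, with an offset of 50), the deposited table, other probe rules and filters, a floor of 16, unpaired courses, 3 h spacing, either part of the course, the methods' t-test and scan day as a random block.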

Additional observations from a re-analysis of the deposited data

Results flagged for a closer look

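The gefitinib effect on A4GALT with EGF differed between the lines, by -2.47 on the log2 scale for PC9GRM2 minus PC9 (limma test of the difference itself over 26 matched time points, adjusted p = 8.85e-08), and was below 0 at 22 of 26 time points. The difference was -0.63 from 0 to 7 h and -3.45 from 16 to 24 h.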

How the results depend on the processing

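The gefitinib effect in EGF-treated PC9, the line difference with EGF and the difference of gefitinib effects kept direction and call under all 15 alternatives with a test, with values of 0.90 to 4.11, 0.89 to 2.91 and -3.52 to -0.86 (log2) and adjusted p-values of at most 0.0343, 3.09e-07 and 0.0183. As percentile ranks within the array, given with no test, they kept their direction at 19.2, 20.4 and -18.5 percentile points. The normexp correction gave the values nearest to 0. At the 18 time points with every array well above background, an alternative chosen after seeing the data, they were 1.86, 2.54 and -1.97. Of the other means, 3 turned with the time window. The first and last 13 time points gave -0.40 and 0.59 for gefitinib with EGF in PC9GRM2, 1.12 and -0.62 for the line difference with EGF and gefitinib, and 1.52 and -1.21 for PC9GRM2 with EGF minus PC9 with EGF and gefitinib. The last was -0.0047 with normexp, and the EGF effect under gefitinib in PC9GRM2 was -0.066 with points 3 h apart, and the cause was not tested. Without the pairing by time point (no replicate block) no call of A4GALT changed: the effect in PC9 had adjusted p = 2.35e-11, that in PC9GRM2 0.543. Changes over time kept their calls under all 10 alternatives in each of 5 courses. Over the 51 pathway genes, the alternatives other than the methods' t-test, which is one-sided for the lines and can call no lower gene there, gave 23 to 27 higher and 17 to 20 lower for gefitinib in PC9 with EGF, 16 to 28 and 12 to 18 in PC9GRM2, 9 to 16 and 15 to 26 for the line difference with EGF, and 4 to 13 and 5 to 18 for the difference of effects (main 11 and 15). Dim arrays of untreated and EGF-treated PC9 limit how low A4GALT could be measured there, and so the size of the folds.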
